A study of Mus musculus with 21 samples.

Results

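The comparison described here is zinc-supplemented against Milli-Q (purified) drinking water in specific pathogen free (SPF) mice, and what it did to the transcripts of sorted Paneth cells. Its members were the 6 libraries that the sample labels place in SPF mice without antibiotics, 3 on zinc water and 3 on Milli-Q water, of 21 libraries in the whole series. The other libraries came from SPF mice given antibiotics and from germ-free mice, each on zinc or Milli-Q water, with at least 3 libraries in each group. All 21 libraries entered the same fit of 6 groups. The p-values therefore rest partly on the spread in those other groups, except where only the SPF libraries were fitted. Zinc sulfate was in the drinking water over 7 weeks, with a labelled concentration of 200 mM, and the control mice drank Milli-Q water over the same period. The study describes the mice as C57BL/6J, Paneth cells were collected from the small intestine by FACS, and each library is given as a separate biological replicate. The labels give no age. Of 55414 gene identifiers in the table, 13070 had enough counts to be tested. Total counts per library lay between 12052705 and 16051708.

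Paneth cells sit at the base of the small intestinal crypts and secrete α-defensins, lysozyme and other antimicrobial proteins. They are known for holding zinc in their granules. Cells buffer zinc with metallothioneins, small cysteine-rich proteins, and move it with exporters of the Slc30a (ZnT) family and importers of the Slc39a (ZIP) family. When zinc rises, the zinc-sensing factor Mtf1 binds metal response elements upstream of the metallothionein genes. Importers such as Slc39a4, which takes up zinc from the gut lumen, are known to fall when zinc is plentiful.

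The sequences before the starts of 3 metallothionein genes are shown because these genes rose together. Each window is the 250 bases that end just before the annotated start of the canonical transcript (GENCODE M39), read from GRCm39, the build that the labels name as mm39. For Mt2 the last 192 of them are shown, since the earlier ones lie in an untranslated first exon of other Mt2 transcripts. All 3 are on the plus strand of chromosome 8. Capitals mark matches on either strand to the core of a metal response element, searched as TGCACNC and TGCGCNC.

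Mt1, chr8:94905460-94905709: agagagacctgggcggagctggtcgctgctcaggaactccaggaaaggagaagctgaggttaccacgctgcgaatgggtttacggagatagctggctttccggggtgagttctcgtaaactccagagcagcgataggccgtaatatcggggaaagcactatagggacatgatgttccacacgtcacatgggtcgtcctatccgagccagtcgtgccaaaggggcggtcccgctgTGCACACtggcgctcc
Mt2, chr8:94898940-94899131: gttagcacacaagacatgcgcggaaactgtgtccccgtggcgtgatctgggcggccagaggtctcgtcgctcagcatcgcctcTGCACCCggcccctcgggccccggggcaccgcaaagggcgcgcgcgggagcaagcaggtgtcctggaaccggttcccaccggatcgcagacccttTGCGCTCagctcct
Mt4, chr8:94863575-94863824: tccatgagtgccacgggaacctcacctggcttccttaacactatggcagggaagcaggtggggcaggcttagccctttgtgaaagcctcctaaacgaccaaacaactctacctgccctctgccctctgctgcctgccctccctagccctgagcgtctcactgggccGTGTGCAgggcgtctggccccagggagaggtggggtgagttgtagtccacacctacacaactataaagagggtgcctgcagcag

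The window of Mt2 held 2 matches, and those of Mt1 and Mt4 held 1 each. Of the same windows of 21627 protein-coding genes, 21.9% held at least 1 match. When the 250 bases after the start were added, Mt2 had 7 matches and Mt1 had 5, and 0.569% of all such windows of 500 bases had 5 or more. Mt4 still had 1 match. Slc30a1, the zinc exporter of the cell surface, had 3 in the longer window, where 5.53% of genes had 3 or more. Slc39a4 had none. Mt3 and Slc30a10, whose levels overlapped between the groups, also had 3. Of the 17 protein-coding genes that passed the test described below, 6 held at least 1 match in the shorter window and 7 in the longer. Over all 21627 genes, 42.1% of the longer windows held at least 1. A match of these letters is a description of the window and not a shown binding site.

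Across all genes, 18 of 13070 were past a Benjamini-Hochberg adjusted p of 0.05 by the quasi-likelihood test of edgeR, or 0.138% of genes. There were 8 higher on zinc water (0.0612%) and 10 lower (0.0765%). Over all genes the median log2 fold change was -0.02. Without any adjustment, 293 genes had a p under 0.05 and a higher level on zinc water (2.24%) and 372 a lower one (2.85%). The levels of the 2 groups did not overlap in 876 genes with zinc higher (6.7%) and 740 with zinc lower (5.66%). In all 18 called genes the groups did not overlap, and these genes were selected by that difference. Levels are given as CPM (a gene's counts relative to the library's total, scaled by TMM factors), in the order of replicates 1, 2 and 3.

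The libraries themselves set limits that hold for every result below. Zinc replicate 1 held 6228 counts of Xist, a transcript made from the inactive X chromosome of female cells, and 1 count in all over the Y-linked genes Ddx3y, Uty, Eif2s3y and Kdm5d. The other 5 libraries held 2 to 34 counts of Xist and 996 to 1449 Y-linked counts, so zinc replicate 1 goes with a female and the others with males, and sex cannot be told apart from the other properties of that library. When zinc replicate 1 was left out, 8 genes passed (0.0599% of those tested), and all 18 genes kept their direction. Those 8 were Mt1, Mt2, Cd177, Tnf, Nox1, Slc39a4, Ceacam10 and Cyba, the last of which had not passed with all libraries. Milli-Q replicate 2 also stood apart. In it, 67 genes reached at least 5 CPM and at least 4 times the level of every other SPF library, against 0 or 1 such genes in each of the other 5 libraries. The genes highest there, named after their values were seen, were Fam3d, Klk1, Car1 and Cyp2c55. Car1, a carbonic anhydrase known for its high level in colon epithelium, stood at 460.5 CPM in that library and at 0 to 0.64 CPM in the others. Leaving out Milli-Q replicate 2 gave 16 called genes, of which 8 were among the 18. Without Milli-Q replicate 1 or 3, 10 and 11 of the 18 kept their call, and without zinc replicate 1, 2 or 3 it was 7, 5 and 10. Mt1, Mt2, Cd177 and Tnf were the 4 genes called whichever single SPF library was left out. With only the SPF libraries in the fit and no zinc replicate 1, Cd177 and Tnf were not called either (adjusted p 0.107 and 0.101). The part of these libraries in each result was not tested beyond the values without them. Paneth cell markers were high in all 6 libraries, with 33.3% to 42.9% of counts on the 10 genes of that list, and Lyz1 alone reached 72400 to 128700 CPM.

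**Figure D1:**
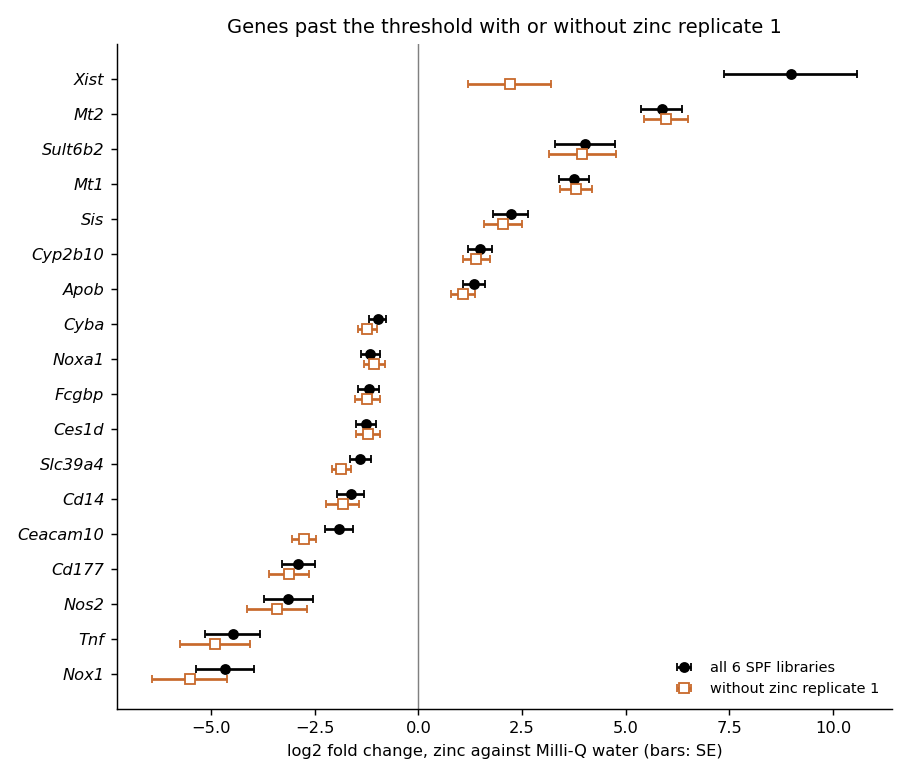
Log2 fold change of zinc against Milli-Q water (x axis, with SE bars) for genes past an adjusted p of 0.05 with all 6 SPF libraries (black circles) or without zinc replicate 1 (open squares). Mt4, with no Milli-Q counts, is left out. The Xist value fell from 8.98 to 2.20 without that library, while Mt2 went from 5.87 to 5.98 and Mt1 from 3.75 to 3.81.

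Zinc handling genes changed most clearly at the metallothioneins. Mt2 (ENSMUSG00000031762, chromosome 8, 94898819 to 94900207) stood at 9.47, 11.4 and 4.55 CPM on Milli-Q water and at 419.5, 484 and 580.1 CPM on zinc water. Mt1 (ENSMUSG00000031765, chromosome 8, 94905710 to 94906955) stood at 48.9, 30.7 and 31.8 CPM on Milli-Q water and at 461, 493 and 546 CPM on zinc water. Every zinc library was far above every Milli-Q library for both genes, and zinc replicate 1 was the lowest of the zinc libraries in each. The log2 fold changes were 5.87 ± 0.50 (SE) for Mt2 and 3.75 ± 0.36 for Mt1, and edgeR gave adjusted p-values of 3.03e-07 and 1.87e-06. Leaving out zinc replicate 1 gave 5.98 and 3.81, both still called. Mt2 overlaps Gm45774 on the opposite strand, and the sources used here do not say whether strand was used in counting.

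Mt4 (ENSMUSG00000031757, chromosome 8, 94863825 to 94865661), a metallothionein best known from stratified epithelia, had 0 counts in each Milli-Q library and 1.14, 3.41 and 0.893 CPM on zinc water, 74 counts in all. Against a floor of 3 counts over the Milli-Q group, it was at least 34.1-fold higher on zinc water. The edgeR adjusted p of Mt4 was 0.0369, and the call was lost without any one library other than zinc replicate 3 (0.0694 to 0.256), by limma-voom (0.0514) and with only the 6 SPF libraries. With no Milli-Q counts, Mt4 could pass the filter on low counts only through groups where it is high, so its p is no independent support. Mt3, the remaining metallothionein, stood at 1.02, 7.76 and 1.31 CPM on Milli-Q water and at 1.71, 1.92 and 0.893 CPM on zinc water. Its groups overlapped, and its highest value was that of Milli-Q replicate 2. Of the 4 metallothioneins, Mt1 and Mt2 thus rose under each of these settings and Mt4 with all libraries. Mtf1, the sensor, had means of 11.1 and 12.5 CPM (log2 fold change 0.17 ± 0.22, SE) and did not pass.

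Slc39a4 (ENSMUSG00000063354, chromosome 15, 76496580 to 76504172) was the only zinc transporter called in edgeR's test with all libraries. It stood at 18.1, 35.3 and 26.4 CPM on Milli-Q water and at 15.8, 6.97 and 7.67 CPM on zinc water. The groups lay close at the Milli-Q replicate 1 and zinc replicate 1 values, with the other 2 zinc libraries clearly lower. It fell by 1.40 ± 0.24 on the log2 scale (SE, edgeR adjusted p 0.0146), and by 1.86 with an adjusted p of 0.000124 without zinc replicate 1. The call was lost without Milli-Q replicate 2 or zinc replicate 2 or 3 (adjusted p up to 0.175), and also with only the 6 SPF libraries in the fit (0.215, or 0.105 without zinc replicate 1). Of the 13 importers tested, 8 had a higher and 5 a lower level on zinc water, and 1 was called. The median log2 fold change of the importers was 0.01.

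Of the 10 Slc30a exporters, 8 were tested and 0 were called in edgeR's test, with 2 at an unadjusted p under 0.05. These 2 were Slc30a1 and Slc30a2. Slc30a2, the exporter that loads zinc into secretory vesicles, stood at 66.4, 53.6 and 66.9 CPM on Milli-Q water and at 106, 99.2 and 102 CPM on zinc water. The groups were well apart, yet its adjusted p was 0.129 for a log2 fold change of 0.72 ± 0.17 (SE) and 0.533 without zinc replicate 1 (log2 fold change 0.69). DESeq2 and limma-voom did call Slc30a2, with adjusted p-values of 0.0177 and 0.0279, and neither called Slc30a1 (0.772 and 0.358). Slc30a1 stood at 5.72, 6.54 and 4.88 CPM on Milli-Q water and at 7.42, 9.25 and 11.2 CPM on zinc water (log2 fold change 0.70 ± 0.29, SE, adjusted p 0.845). Over the whole list of 29 zinc handling genes, 26 were tested, with 3 called higher and 1 called lower. The median log2 fold change was 0.06 against -0.02 over all genes. DESeq2 called 5 genes of this list and limma-voom 4, and edgeR called 2 without Milli-Q replicate 2.

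**Figure D2:**
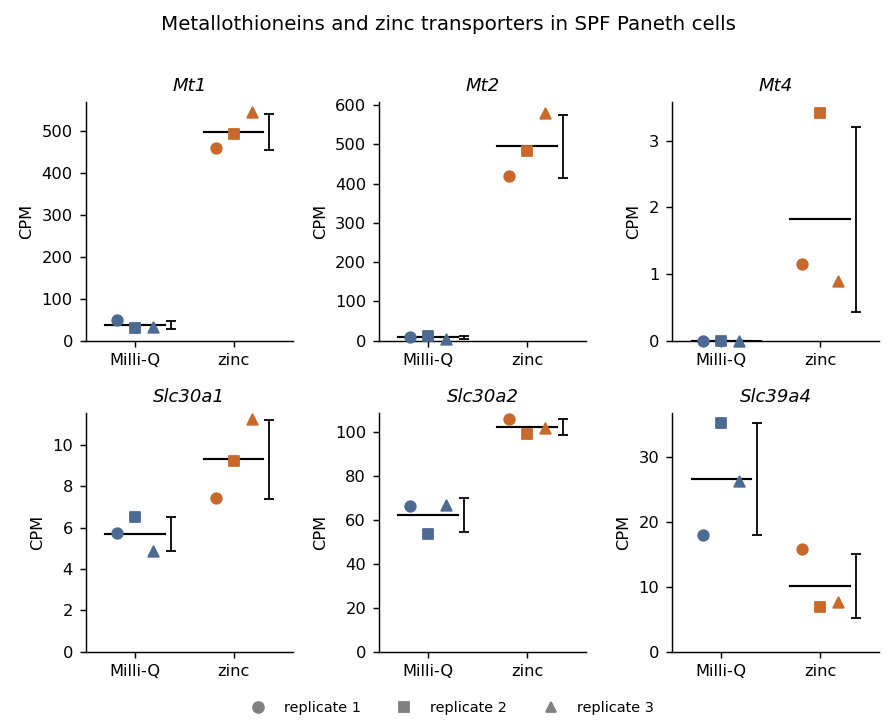
CPM (y axes, from 0) of 6 zinc handling genes in each SPF library, with symbols for the replicate number, a line at the group mean and a bar for the SD (n = 3 each). Mt1, Mt2 and Mt4 lie far higher on zinc water, Slc39a4 lower, and the exporters Slc30a1 and Slc30a2 a little higher without passing the test.

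Genes that make reactive oxygen and nitric oxide were lower on zinc water. In the epithelium, Nox1 is the catalytic subunit of an NADPH oxidase, with Cyba as its membrane partner, Noxa1 as its activator and Noxo1 as its organizer, while Nos2 makes nitric oxide. Nox1 (ENSMUSG00000031257, chromosome X, 132987170 to 133122705) stood at 11.3, 16.3 and 13.5 CPM on Milli-Q water and at 1.06, 0.427 and 0.149 CPM on zinc water. Every zinc library was far below the lowest Milli-Q library. The log2 fold change of Nox1 was -4.66 ± 0.71 (SE, edgeR adjusted p 0.00249), and -5.52 without zinc replicate 1 (adjusted p 0.00727). Its call was lost without zinc replicate 2 (adjusted p 0.0533). Nox1 had 13, 6 and 2 counts on zinc water. It could therefore pass the filter on low counts only through groups where it is higher. Its p is thus no independent support. Xkrx overlaps Nox1 on the same strand, which makes the counts of this pair uncertain.

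Noxa1 stood at 32.7, 36.7 and 38.4 CPM on Milli-Q water and at 13.9, 15.6 and 18.9 CPM on zinc water. The spread within each group was small beside the gap between them. Its log2 fold change was -1.16 ± 0.22 (SE) with an edgeR adjusted p of 0.0314, and -1.06 with an adjusted p of 0.257 without zinc replicate 1. Entpd8 overlaps Noxa1 on the other strand. Cyba stood at 58.2, 37.3 and 46.5 CPM on Milli-Q water and at 31.6, 19.3 and 20.99 CPM on zinc water. The groups did not overlap, but Cyba was just short of the threshold (log2 fold change -0.98 ± 0.21, SE, edgeR adjusted p 0.0708). Without zinc replicate 1, the zinc library nearest to the Milli-Q group, it was called (log2 fold change -1.23, adjusted p 0.0296). Noxo1 overlapped between the groups, with means of 93.6 ± 16.98 and 76.2 ± 5.97 CPM (SD, n = 3 each).

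Nos2 stood at 4.50, 4.19 and 8.75 CPM on Milli-Q water and at 0.897, 0.925 and 0.149 CPM on zinc water. All zinc libraries were under 1 CPM. It fell by 3.14 ± 0.60 on the log2 scale (SE, edgeR adjusted p 0.0283), with an adjusted p of 0.112 without zinc replicate 1. With 11, 13 and 2 counts on zinc water, Nos2 too could pass that filter only through groups where it is higher. Its p is likewise no independent support. Duox2, the hydrogen peroxide source of the mucosal surface, stood at 22.2, 50.4 and 36.4 CPM on Milli-Q water and at 17.9, 25.6 and 17.3 CPM on zinc water, which overlap, and was not called (adjusted p 0.247). Of the 15 genes of the oxidase and nitric oxide list, 9 were tested and 3 were called, all lower. At an unadjusted p under 0.05, 6 of the 9 were lower and 0 higher, against 2.85% and 2.24% of all genes. The median log2 fold change of the list was -0.98, -1.06 without zinc replicate 1 and -0.78 without Milli-Q replicate 2. DESeq2 and limma-voom each called 4 of the 9. Cybb, the oxidase subunit of phagocytes, had 0 counts in all 6 libraries.

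Among sensors and effectors of the response to microbes, Tnf and Cd14 fell. Tnf (ENSMUSG00000024401, chromosome 17, 35418357 to 35420983), the inflammatory cytokine, stood at 2.32, 2.35 and 2.66 CPM on Milli-Q water and at 0.163, 0.142 and 0 CPM on zinc water. These are 135 counts against 4, a ratio of 24.4 with a 95% interval of 9.32 to 90.9 that covers counting error only. The edgeR adjusted p of Tnf was 0.00249, and 0.0134 without zinc replicate 1, and the call held without any single SPF library. With 4 counts in all on zinc water, Tnf could pass the filter on low counts only through groups where it is higher, so its p is no independent support. Cd14, the co-receptor for bacterial lipopolysaccharide, stood at 4.16, 5.51 and 6.63 CPM on Milli-Q water and at 2.20, 1.49 and 1.56 CPM on zinc water. It fell by 1.64 ± 0.33 on the log2 scale (SE, edgeR adjusted p 0.0444), with an adjusted p of 0.112 without zinc replicate 1. Tlr2, a receptor for bacterial lipoproteins, stood at 2.25, 4.44 and 2.61 CPM on Milli-Q water and at 0.815, 1.14 and 0.819 CPM on zinc water, without passing (adjusted p 0.0870). All 3 genes rest on few counts.

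Of 16 microbe-sensing genes, 13 were tested and 1 was called, Cd14. At an unadjusted p under 0.05, 4 were lower and 0 higher, against 2.85% and 2.24% of all genes. The median log2 fold change of the microbe-sensing genes was -0.32, and Myd88, the adaptor shared by most Toll-like receptors, had means of 12.3 and 11.03 CPM. Among 20 NF-kB target genes, 13 were tested and Tnf alone was called. At an unadjusted p under 0.05, 5 of them were lower and 0 higher, beside the same shares of all genes. Nfkbia, the inhibitor of NF-kB that NF-kB itself induces, stood at 41.8, 36.2 and 47.6 CPM on Milli-Q water and at 27.8, 32.6 and 23.2 CPM on zinc water (adjusted p 0.241). The groups of Nfkbia did not overlap, and its log2 fold change was -0.59 ± 0.16 (SE). The median of the NF-kB targets was -0.52, -0.49 without zinc replicate 1 and -0.40 without Milli-Q replicate 2.

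The antibacterial lectins Reg3b and Reg3g gave values that depended on zinc replicate 1. Reg3g stood at 414, 377 and 508 CPM on Milli-Q water and at 461, 168 and 172 CPM on zinc water. Reg3b stood at 88.9, 103 and 119 CPM on Milli-Q water and at 174, 43.8 and 44.1 CPM on zinc water. For both genes zinc replicate 1 was within or above the Milli-Q range and the other 2 zinc libraries were well below it. The log2 fold changes were -0.70 ± 0.37 (SE) for Reg3g and -0.25 ± 0.41 for Reg3b with all libraries, and -1.35 and -1.24 without zinc replicate 1, with edgeR adjusted p-values of 0.461 and 0.670 in the latter. Neither gene was called in either case.

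Pigr, the receptor that carries immunoglobulin A across the epithelium, stood at 1270, 1435 and 1288 CPM on Milli-Q water and at 1062, 849 and 943 CPM on zinc water, with no overlap. It was not called (log2 fold change -0.48 ± 0.15, SE, edgeR adjusted p 0.3495). Of the 16 microbe-induced genes, 11 were tested and 1 was called (Nos2, lower). At an unadjusted p under 0.05, 7 were lower and 0 higher, against 2.85% and 2.24% of all genes. Of those 7, Nos2, Duox2 and Duoxa2 are also in the oxidase and nitric oxide list, so the 2 lists are not separate counts. The median of the microbe-induced list was -0.79 with all libraries, -1.14 without zinc replicate 1 and -0.43 without Milli-Q replicate 2. Without the latter, 4 genes were lower and 2 higher at an unadjusted p under 0.05. In Milli-Q replicate 2, Retnlb and Fut2 stood at 97.9 and 59.5 CPM, against at most 3.98 and 2.90 CPM in any other library.

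Further genes outside these lists fell as well. Cd177 (ENSMUSG00000052212, chromosome 7, 24443408 to 24459747), a surface protein best known from neutrophils, stood at 19.8, 56.7 and 24.9 CPM on Milli-Q water and at 5.87, 3.34 and 4.47 CPM on zinc water. Milli-Q replicate 2 was the highest, and the gap to the zinc libraries remained with the other Milli-Q libraries. Its log2 fold change was -2.90 ± 0.40 (SE, edgeR adjusted p 0.000821), and -3.12 without zinc replicate 1. Ceacam10 (chromosome 7, 24476598 to 24484082), a secreted member of the carcinoembryonic antigen family whose gene lies near Cd177, stood at 22.3, 41.8 and 20.7 CPM on Milli-Q water and at 14.4, 3.70 and 4.69 CPM on zinc water. Zinc replicate 1 was again nearest to the Milli-Q group, and the fall grew from 1.91 ± 0.34 (SE, edgeR adjusted p 0.0146) to 2.75 without it (adjusted p 1.18e-05). The Ceacam10 call was lost without Milli-Q replicate 2 or zinc replicate 2 or 3.

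Ces1d, a carboxylesterase, stood at 35.0, 47.6 and 19.9 CPM on Milli-Q water and at 13.4, 12.02 and 17.3 CPM on zinc water. It fell by 1.26 ± 0.25 on the log2 scale (SE, edgeR adjusted p 0.0343), with an adjusted p of 0.220 without zinc replicate 1. Fcgbp, a mucus protein of goblet cells, stood at 359.6, 331 and 267 CPM on Milli-Q water and at 145, 149 and 123 CPM on zinc water. It fell by 1.199 ± 0.25 on the log2 scale (SE, edgeR adjusted p 0.0452), with an adjusted p of 0.220 without zinc replicate 1.

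**Figure D3:**
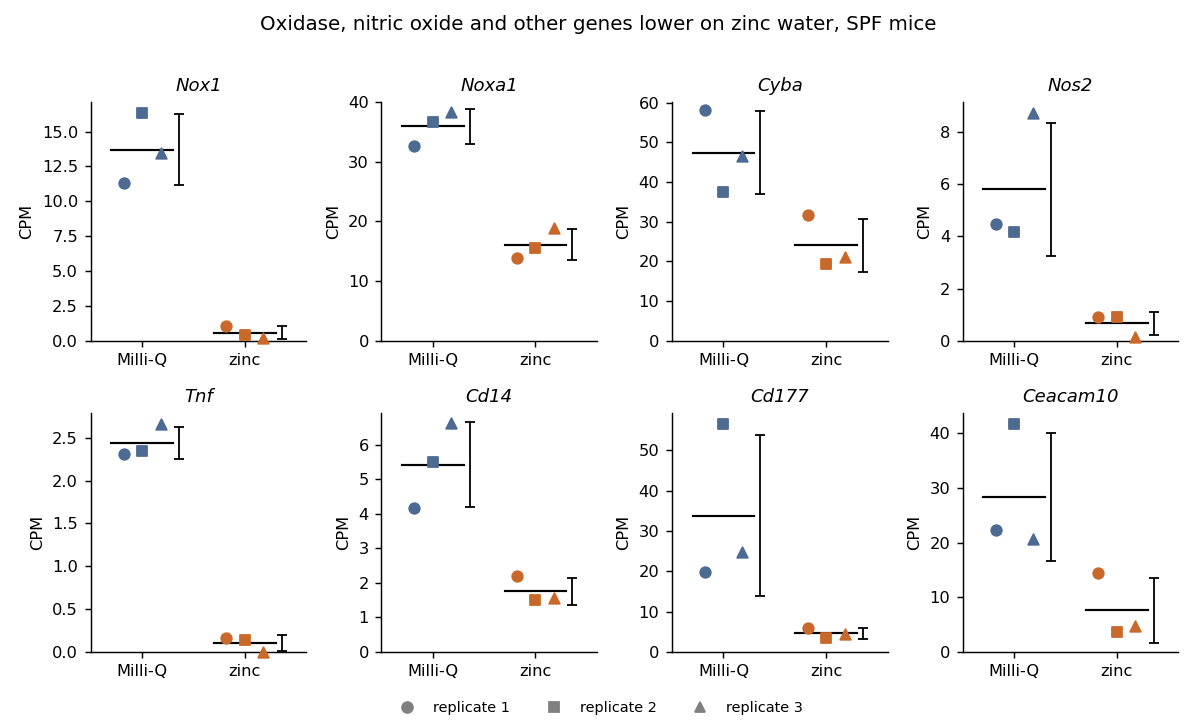
CPM (y axes, from 0) of 8 genes in each SPF library, with symbols for the replicate number, a line at the group mean and a bar for the SD (n = 3 each). In every panel the zinc libraries lie below the Milli-Q libraries; Cyba did not pass the test with all libraries, and zinc replicate 1 (circle) is the highest zinc library for Nox1, Cyba, Tnf, Cd14, Cd177 and Ceacam10.

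Of 8 goblet markers, Fcgbp alone was called. At an unadjusted p under 0.05, 5 were lower and 0 higher, against 2.85% and 2.24% of all genes. Leaving out Milli-Q replicate 2 left 2 lower and 0 called. Muc2, the gel-forming mucin, stood at 608, 2671 and 922 CPM on Milli-Q water and at 869, 968 and 589 CPM on zinc water. The other two Milli-Q libraries lay within the zinc range, and Milli-Q replicate 2 alone was above it. The median log2 fold change of the goblet markers was -0.70 with all libraries and 0.03 without Milli-Q replicate 2. With all libraries, 7 of the 8 had a lower fitted level on zinc water and 1 a higher one. That 1 was Spink4, with means of 5149 and 6139 CPM and overlap (log2 fold change 0.25 ± 0.19, SE). The summed goblet markers took 1.04% to 1.57% of counts on Milli-Q water and 0.934% to 0.992% on zinc water. In sorted bulk samples, fewer cells of a type and less RNA per cell cannot be told apart.

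Enterocyte genes were higher on zinc water. Enterocytes digest and absorb nutrients, with Sis (sucrase-isomaltase) splitting sugars at the brush border and Apob and Mttp building the lipoproteins that carry absorbed fat. Sis (ENSMUSG00000027790, chromosome 3, 72795890 to 72875196) stood at 7.70, 19.2 and 10.5 CPM on Milli-Q water and at 72.0, 72.1 and 31.6 CPM on zinc water. It rose by 2.23 ± 0.42 on the log2 scale (SE, edgeR adjusted p 0.0283), and zinc replicate 3 was the nearest to the Milli-Q libraries. Apob stood at 27.1, 33.8 and 31.9 CPM on Milli-Q water and at 104, 80.9 and 50.5 CPM on zinc water, with a log2 fold change of 1.34 ± 0.28 (SE, edgeR adjusted p 0.0452). Without zinc replicate 1 neither was called, with log2 fold changes of 2.05 and 1.09 and adjusted p-values of 0.168 and 0.461. Mttp stood at 26.8, 29.7 and 27.1 CPM on Milli-Q water and at 68.8, 65.1 and 46.9 CPM on zinc water and was not called (adjusted p 0.115).

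All 22 enterocyte markers were tested, and Sis and Apob were the 2 called (0 without zinc replicate 1 and 1 without Milli-Q replicate 2). At an unadjusted p under 0.05, 18 of 22 were higher and 0 lower, against 2.24% and 2.85% of all genes. In 18 the zinc libraries lay above every Milli-Q library, against 6.7% of all genes. The median log2 fold change of the list was 1.88, 1.70 without zinc replicate 1 and 2.29 without Milli-Q replicate 2. DESeq2 called 4 of these genes and limma-voom 10. Milli-Q replicate 1 was the lowest library for most of them. Apoa1 stood at 11.5, 72.9 and 63.6 CPM on Milli-Q water and at 413, 280.2 and 152 CPM on zinc water, and Lct, the lactase gene, at 0.954, 20.9 and 7.88 CPM and 55.6, 55.3 and 23.5 CPM. Vil1, Mgam and Dpp4, which had log2 fold changes of 0.21, 0.33 and 0.09, overlapped between the groups.

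Summed over the list, enterocyte markers took 0.104%, 0.175% and 0.148% of counts on Milli-Q water and 0.273%, 0.281% and 0.185% on zinc water. Their part in the rise of Sis and Apob, which belong to the list, was not tested. Immune markers took 0.00105% to 0.0015% of counts on Milli-Q water and 0.00105% to 0.00123% on zinc water, with 4 of 15 markers at 0 counts in all 6 libraries and 3 tested. Ptprc, found on all white blood cells, was at 1.09 to 2.53 CPM. Red cell markers took at most 2.81e-05% of counts. Stem and cycling markers, 13 of 13 tested, had 0 calls in edgeR, DESeq2 or limma-voom, 0 at an unadjusted p under 0.05 and a median of 0.12. Their summed share was 0.633%, 0.452% and 0.625% on Milli-Q water and 0.413%, 0.408% and 0.438% on zinc water. Olfm4, 1 of them, had means of 3764 and 2945 CPM and overlapped between the groups. Enteroendocrine markers had a median of -0.31, with 3 of 13 lower at an unadjusted p under 0.05 (1 without Milli-Q replicate 2) and 0 called by any of these tools, and their summed share was 0.0168% to 0.0311% on Milli-Q water and 0.00951% to 0.0138% on zinc water. Chga, a granule protein of enteroendocrine cells, stood at 23.4, 44.9 and 19.1 CPM on Milli-Q water and at 5.38, 9.74 and 15.6 CPM on zinc water (edgeR adjusted p 0.298).

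**Figure D4:**
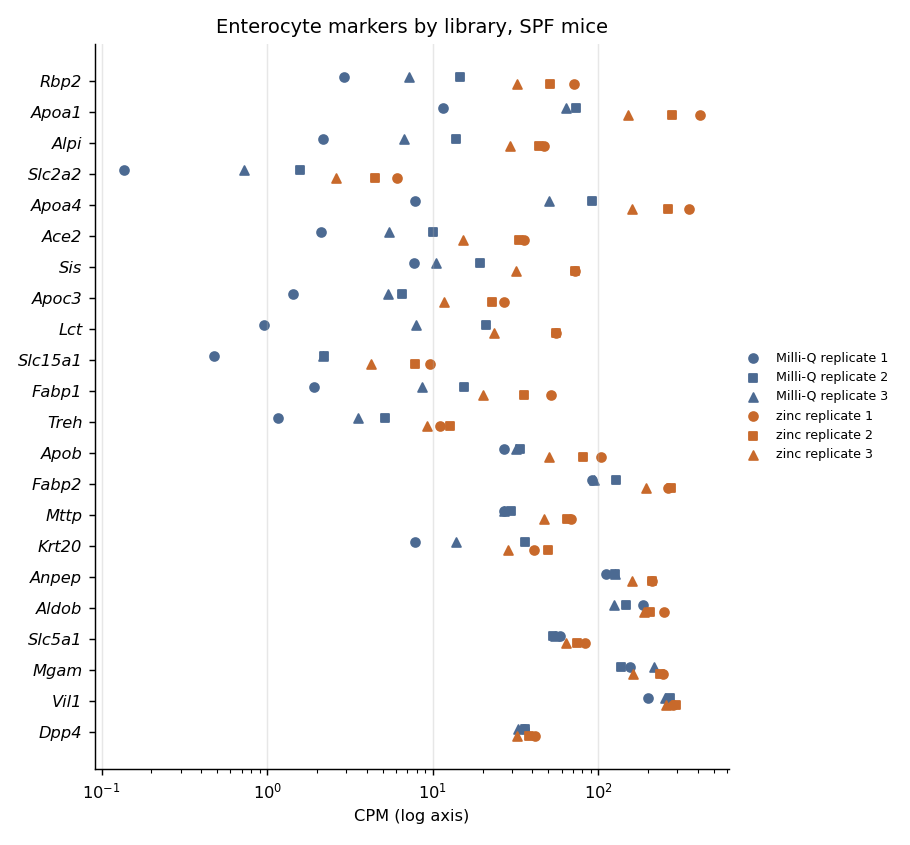
CPM (log axis) of the 22 enterocyte markers in each of the 6 SPF libraries, Milli-Q in blue and zinc in orange, ordered by fold change. In 18 genes the 3 zinc libraries lie above all Milli-Q libraries, while Krt20, Mgam, Vil1 and Dpp4 overlap; Milli-Q replicate 1 (blue circle) is the lowest library for most of the genes with a large change.

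Among the other genes that rose, Cyp2b10, a cytochrome P450 known to respond to foreign compounds, stood at 2.66, 3.42 and 2.27 CPM on Milli-Q water and at 8.73, 7.89 and 6.85 CPM on zinc water. Its values were tight in each group, and the log2 fold change was 1.49 ± 0.29 (SE, edgeR adjusted p 0.0369), with 1.40 and an adjusted p of 0.220 without zinc replicate 1. Sult6b2, a sulfotransferase, had 11 counts on Milli-Q water and 134 on zinc water. It stood at 0.204, 0.102 and 0.290 CPM and at 3.67, 3.70 and 2.75 CPM, with a log2 fold change of 4.02 ± 0.73 (SE, edgeR adjusted p 0.0194) and an adjusted p of 0.0771 without zinc replicate 1. With so few Milli-Q counts, Sult6b2 could pass the filter on low counts only through groups where it is higher, so its p is no independent support. Xist was the remaining gene, and its call rested on zinc replicate 1, which held 508 CPM against at most 2.53 CPM elsewhere.

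Of the 10 genes next in order of p, 5 were higher on zinc water. Akp3, an intestinal alkaline phosphatase, stood at 0.477, 2.04 and 1.69 CPM on Milli-Q water and at 26.3, 39.3 and 33.3 CPM on zinc water. That gap of 4.50 ± 1.01 on the log2 scale (SE) did not pass (edgeR adjusted p 0.0870). Gsta2, a glutathione transferase, had 0 counts on Milli-Q water and 38 on zinc water, and was at least 17.5-fold higher against a floor of 3 counts over the group (adjusted p 0.0813). Like Mt4, Gsta2 could pass the filter on low counts only through groups where it is high, so its p is no independent support. Bco1, which cleaves β-carotene to retinal, stood at 1.16, 1.94 and 1.596 CPM on Milli-Q water and at 4.00, 5.62 and 5.06 CPM on zinc water (adjusted p 0.0852). Asah2, a neutral ceramidase of the brush border, and Mttp were the other two. Cyba and Tlr2 were lower. St6galnac6, Chst4 and 1810065E05Rik, also lower in the mean, stood at 118, 28.2 and 80.8 CPM in Milli-Q replicate 2 and at no more than 2.93, 4.36 and 0.815 CPM in any other library.

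The α-defensins are the main product of the cell. With all libraries, each tested gene had a higher fitted level on zinc water, without any being called. Without zinc replicate 1 the direction was no longer shared, with log2 fold changes of -0.04 for Defa39 and -0.18 for Defa43. Of the 28 Defa genes, 20 were tested and 0 were called by edgeR, DESeq2 or limma-voom. At an unadjusted p under 0.05, 9 were higher, against 2.24% of all genes. That count of 9 was 4 without zinc replicate 1 and 3 without Milli-Q replicate 2. The median log2 fold change of the tested Defa genes was 0.47, 0.41 without zinc replicate 1, 0.25 without Milli-Q replicate 2 and 0.27 when scaled by library totals only, where the median of all genes was -0.23. Defa24 stood at 140500, 83580 and 128000 CPM on Milli-Q water and at 172600, 141300 and 154400 CPM on zinc water (log2 fold change 0.41 ± 0.25, SE). The lowest value was that of Milli-Q replicate 2. The 28 genes together took 31.2%, 24.1% and 33.5% of counts on Milli-Q water and 36.4%, 33.8% and 35.0% on zinc water. The difference of 5.46 percentage points had a two-sided exact permutation p of 0.1, the smallest that 3 against 3 libraries can give, and was 2.71 points without Milli-Q replicate 2. Reads of near-identical Defa genes may have been split or dropped in counting, so values of single genes, the summed share and its difference are all uncertain. The 8 Defa genes that were not tested, Defa2, Defa20 and Defa33 among them, had at most 0.893 CPM in any of the 6 libraries. The paper's own quantification of a typical Paneth cell experiment places Defa2, Defa20 and Defa33 among the abundant Defa transcripts. Their near-zero counts here therefore cannot be read as low expression. Whether their reads were lost in counting was not tested.

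Among other granule products, Lyz1 (lysozyme) had means of 95670 ± 29370 and 108700 ± 5360 CPM and Itln1 (intelectin) 27330 ± 6208 and 33950 ± 5428 CPM (SD, n = 3 each), with overlap in both. The 10 genes of the list had a median of 0.29, with 2 higher and 1 lower at an unadjusted p under 0.05 and 0 called in edgeR's test, while DESeq2 called Mptx1. Mptx1, a pentraxin, stood at 6.88, 16.1 and 4.88 CPM on Milli-Q water and at 3.43, 1.78 and 2.61 CPM on zinc water, with no overlap (log2 fold change -1.84 ± 0.47, SE, edgeR adjusted p 0.204) and -2.09 without zinc replicate 1. Pnliprp2, a pancreatic-type lipase, stood at 1332, 1031 and 1122 CPM on Milli-Q water and at 1835, 1653 and 1699 CPM on zinc water, also with no overlap (log2 fold change 0.57 ± 0.22, SE, edgeR adjusted p 0.710). Without Milli-Q replicate 2 the count of higher genes at an unadjusted p under 0.05 went from 2 to 0. Bhlha15 (Mist1), a factor of the secretory programme, stood at 130, 107 and 127 CPM on Milli-Q water and at 155, 158 and 162 CPM on zinc water and was not called (log2 fold change 0.39 ± 0.15, SE, adjusted p 0.752). Atoh1, which drives the secretory fate, stood at 42.8, 71.5 and 48.4 CPM on Milli-Q water and at 41.4, 38.8 and 36.7 CPM on zinc water (adjusted p 0.917).

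In the stress and metabolic lists 0 genes were called by edgeR, DESeq2 or limma-voom. The unfolded protein response list (24 tested) had a median log2 fold change of -0.03 and 1 gene at an unadjusted p under 0.05, and its chaperone Hspa5 had means of 483 ± 66.6 and 475 ± 69.4 CPM (SD, n = 3 each). The integrated stress response list (18 tested) had a median of 0.04 and 2 such genes, the Nrf2 targets (16 tested) 0.15 and 1 (5 higher without Milli-Q replicate 2), and heat shock genes (14 tested) -0.04 and 0. Immediate early genes (18 tested) had a median of -0.26 and 1 such gene, with Fos between 140 and 274 CPM on Milli-Q water and 123 and 241 CPM on zinc water. Clock genes (16 tested) had a median of -0.08 and 0 such genes, cholesterol synthesis genes (22 tested) -0.11 and 1, fatty acid oxidation genes (16 tested) -0.12 and 1, and Paneth niche ligands (11 tested) 0.10 and 0. Interferon-stimulated genes (16 tested) had a median of 0.09 and 0 such genes.

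MHC class II genes (8 tested, 0 called by any of these tools, 1 lower at an unadjusted p under 0.05) overlapped between the groups in every tested gene. Cd74, their invariant chain, stood at 9.68, 53.4 and 13.2 CPM on Milli-Q water and at 24.1, 33.6 and 48.4 CPM on zinc water. Their median was 0.22 with all libraries and 1.23 without Milli-Q replicate 2. Mitochondrially encoded genes (7 of 13 tested) were higher in all 7 with a median of 0.38, 0.18 with library totals only, and 0 at an unadjusted p under 0.05. Nuclear genes of oxidative phosphorylation (89 tested) had a median of -0.10 and ribosomal protein genes (84 tested) -0.12, with 2 and 1 genes at an unadjusted p under 0.05 (for the ribosomal genes 1 higher and 6 lower without Milli-Q replicate 2), and none of these 3 lists had a call by edgeR, DESeq2 or limma-voom. With library totals only, the medians of the zinc handling, MHC class II, interferon, integrated stress response, Nrf2, niche and stem lists turned negative (-0.05 to -0.16), against -0.23 for all genes.

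**Figure D5:**
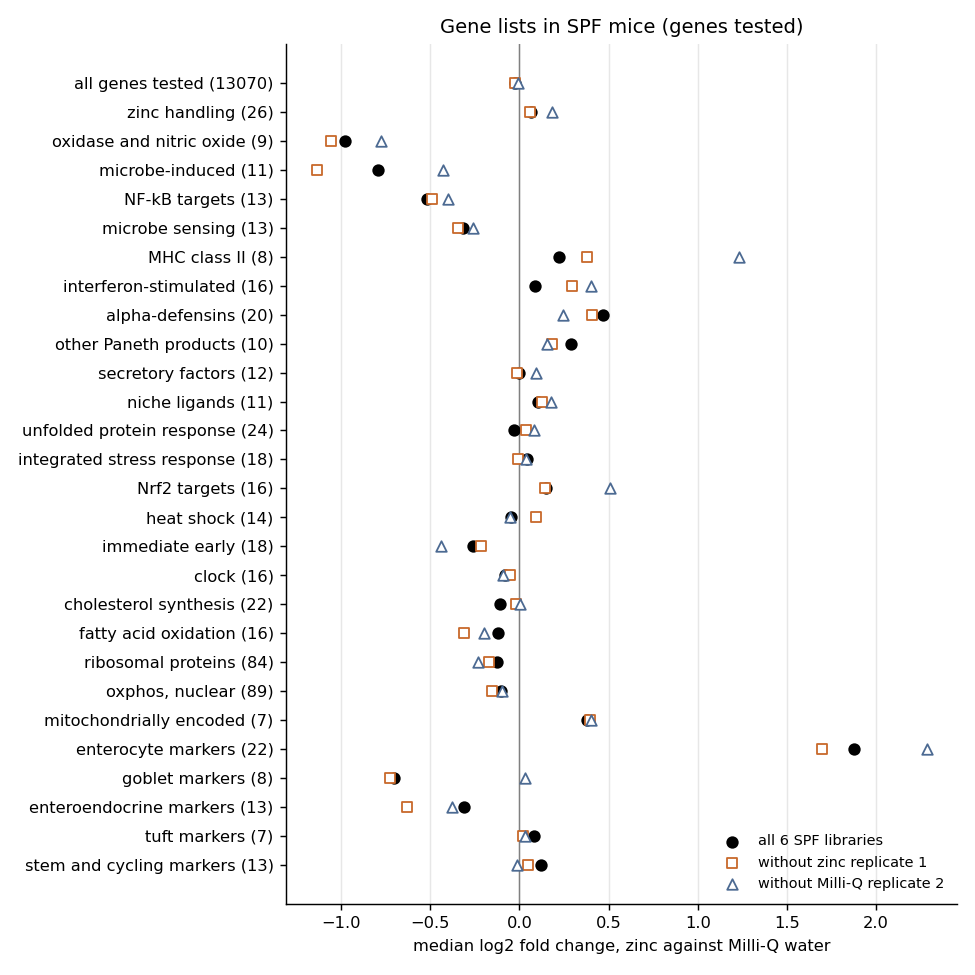
Median log2 fold change of zinc against Milli-Q water (x axis) over the tested genes of each list (number in brackets), with all 6 SPF libraries, without zinc replicate 1 and without Milli-Q replicate 2. Enterocyte markers lie highest at 1.88 and the oxidase and nitric oxide genes lowest at -0.98; the goblet median moves from -0.70 to 0.03 without Milli-Q replicate 2, and the microbe-induced median from -0.79 to -1.14 without zinc replicate 1.

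Whether the zinc effect in SPF mice differed from that in the other microbiome contexts was tested as a difference of effects. For zinc after 3 weeks of broad-spectrum antibiotics minus zinc in SPF mice, 0 genes were past the threshold in edgeR (0%), with 2418 at an unadjusted p under 0.05, and DESeq2 called 260 and limma-voom 473. For germ-free minus SPF mice, 0 genes passed (0%), with 1741 at an unadjusted p under 0.05, and DESeq2 called 34 and limma-voom 354. Of the 18 genes called in SPF mice, 16 had the same direction with antibiotics and 16 in germ-free mice, Cyp2b10 and Fcgbp being the exceptions. Xist is among those 16, with log2 fold changes of 0.07 ± 2.27 and 0.28 ± 2.80 (SE). The share of all genes with the same direction is not given here, so the count of 16 cannot be set against it. Mt1, Mt2, Cd177 and Nos2 were among those past the edgeR threshold in both other contexts. The share of all genes past it there is not given either, so these calls cannot be read as rare. The log2 fold change of Mt2 was 5.65 ± 0.42 with antibiotics and 4.39 ± 0.45 in germ-free mice (SE). Among the 18 genes, Cyp2b10, Fcgbp and Nox1 had the lowest p in both differences. The log2 fold change of Cyp2b10 was 1.49 in SPF mice against -0.16 ± 0.27 with antibiotics and -0.25 ± 0.26 in germ-free mice (SE). That of Fcgbp was -1.199, 0.01 ± 0.21 and 0.29 ± 0.23. The log2 fold change of Nox1 was -4.66 in SPF mice, and in the other contexts -1.42 ± 0.49 and -0.47 ± 0.63. The edgeR adjusted p-values of these differences, antibiotics then germ-free, were 0.107 and 0.166 for Cyp2b10, 0.114 and 0.166 for Fcgbp and 0.114 and 0.166 for Nox1. Genes called in SPF mice were chosen on an effect that enters each difference, which favours large differences among them.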

How the data were processed

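Paneth cell libraries were made, per the labels, with a stranded mRNA kit after FACS and column extraction of total RNA. The authors deposited raw counts per Ensembl gene, without normalization, in a table whose 21 columns were matched to samples by name. The submitters' processing notes name FastQC 0.12.0, STAR 2.7.0a, DESeq2 and mm39, and the counting tool and its use of strand are not given in the sources used here. Of 55414 identifiers, 54749 matched GENCODE M39 on GRCm39; the other 665 held 0.0164% of counts. Counts were tested with edgeR 4.0.16 (R 4.3.3) by the quasi-likelihood test, with all 21 libraries in a fit of 6 groups, TMM factors, filterByExpr (13070 genes) and Benjamini-Hochberg adjustment at 0.05. Since the filter ran over all groups, a gene could pass through any of them. Alternatives were DESeq2 1.42.0, limma-voom (limma 3.58.1) with quality weights, other scalings and filters, a replicate block, fits of the 6 SPF libraries only, and leaving out each SPF library. Standard errors are the log2 fold change over the root of F. The script was tested on simulated data. No pair of SPF replicates agreed within sampling noise. Intervals and floors cover counting error only.

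Gene lists, members and named genes were chosen with earlier results of these data known. Named were all genes past the threshold with all libraries or without zinc replicate 1, the 10 next by p, the tested zinc handling genes, the 3 most abundant of each other list, Defa24, Lyz1, Itln1, Reg3b, Reg3g and the sex-linked genes; of these, genes whose list showed no call are given by list. Other genes were named after their values were seen, namely Duox2, Duoxa2, Mptx1, Pnliprp2, Defa2, Defa20, Defa33, Cybb, Apoa1, Lct, Dpp4, Krt20, Atoh1, Retnlb, Fut2 and those of Milli-Q replicate 2. The Defa share was compared by a two-sided exact permutation test. Figures were drawn with matplotlib 3.10.9.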

Additional observations from a re-analysis of the deposited data

How the results depend on the processing

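The count of 18 genes in SPF mice was 18 with DESeq2-type size factors or with TMM factors without the Defa genes, 19 (5 higher, 14 lower) with library totals only, which moved the median of all genes from -0.02 to -0.23, 16 without X and Y genes and 15 with only the 6 SPF libraries (9 of the 18 among them, with Slc39a4, Ceacam10, Nos2, Sis, Ces1d, Mt4, Cd14 and Apob lost). It was 269 with no filter on low counts, 11 with a stricter filter, 40 with DESeq2, 60 with limma-voom, and 4 with only the SPF libraries and no zinc replicate 1, where Cd177 and Tnf were lost too. Leaving out 1 SPF library gave 5 to 37 genes, with the lowest count without zinc replicate 2 and the highest without Milli-Q replicate 3, and 4 of the 18 genes (Mt1, Mt2, Cd177 and Tnf) were called in all 6 of those fits. Same-numbered libraries deviated together with correlations of 0.0276, 0.132 and 0.0601, and libraries of different numbers with -0.224 to 0.194. With 3 libraries a group, these values cannot decide whether the replicate numbers pair the libraries. The replicate block gave 31 genes, and 30 with only the 6 SPF libraries, an alternative added after seeing the data. For the difference between antibiotics and SPF mice, the count of 0 became 675 with no filter, 260 with DESeq2, 473 with limma-voom and 645 with the replicate block, and 0 to 21 when 1 SPF library was left out (21 without Milli-Q replicate 3). For germ-free against SPF mice it became 429, 34, 354 and 1140 in the same order, and remained 0 when any 1 SPF library was left out. The cause of these moves was not tested. None of the 18 genes changed direction in the settings where it was tested; the stricter filter kept 14 of them, the fit without X and Y genes 16 and the fits of only the SPF libraries 17. The Defa difference was 5.47 points with pseudogenes, 5.67 without mitochondrial genes and 2.71 to 7.40 when 1 library was left out, always higher on zinc water. With 3 libraries a group, 1 library of which differs in sex, these values limit how far any single call can be read.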
